A study of Mus musculus with 12 samples.

Results

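The cytosolic heat shock chaperones examined here are 10 mouse genes: Hspa1a, Hspa1b, Hspa8, Hsph1, Hsp90aa1, Hsp90ab1, Hspb1, Dnajb1, Bag3 and Hsf1. They were chosen by gene symbol, and every array probe whose RefSeq transcript belongs to 1 of them was taken. Of the 10 genes 9 had a probe, and the array lists none for Hspa1b. The 9 genes had 16 of the 41174 probes, and all 16 were among the 24962 probes bright enough to be tested. Hspa1a had 4 probes, and Hspa8, Hsp90ab1, Dnajb1 and Hsf1 had 2 each. Probes of a gene are numbered here from the brightest to the dimmest.

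The study measured RNA in primary hepatocytes, isolated from livers of C57BL/6 mice with (+/+) or without (-/-) PGC-1alpha. That protein, the product of Ppargc1a, coactivates transcription of genes for mitochondria and for gluconeogenesis. An adenovirus brought either a hairpin RNA labelled shTLS or a control hairpin into the cells, at a multiplicity of infection of 5, and cells were harvested 24 h after infection. All 4 groups, +/+ control, +/+ shTLS, -/- control and -/- shTLS, thus carried a virus, and the medium of all held dexamethasone at 100 nM and insulin at 100 nM. The age of the mice is not given in the sources used here. Each of the 6 mice, 3 per genotype, gave 1 control and 1 shTLS culture, so that each group held 3 arrays. Arrays of the same replicate number came from the same independent assay and the same slide, and arrays of the same number and genotype from the same mouse.

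Heat shock proteins are chaperones that hold or refold unfolded proteins. The Hsp70 proteins bind exposed hydrophobic stretches in a cycle driven by ATP, J-domain proteins such as Dnajb1 deliver the substrate and start hydrolysis, and exchange factors such as Hsph1 and Bag3 release the nucleotide. Hsp90 proteins act later, on kinases and on steroid receptors, small heat shock proteins such as Hspb1 hold unfolded proteins without ATP, and the transcription factor Hsf1 switches the inducible members on under stress. In liver the system is known from fever, ischaemia and the isolation of hepatocytes.

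Values are log2 intensities, normalized by the authors so that all arrays share 1 distribution. They can be compared for 1 probe across arrays, not between probes. The 1 probe of Ppargc1a read 9.21 ± 1.09 in +/+ and 9.38 ± 0.34 in -/- control cells (SD, n = 3), and it checks nothing about the genotype, since the deleted part is not named in the labels. Of 10 hepatocyte markers 8 had a probe, and all 8 were above background on all 12 arrays. All 8 differences with shTLS, averaged over genotypes, were below 0 (median -0.79, beside -0.04 over all named genes; -1.69 scaled to the spike-in controls), from -1.35 for Fgb to -0.07 for Alb. That median is close in size to the differences of Hsf1 and Hspb1 given below, and its part in them was not tested. None of the 8 passed with limma, 1 had an unadjusted p under 0.05, and Apob passed lower with the replicate block (adjusted p = 0.0335). The 75th percentile of the processed signal before normalization was 810 to 1064 on arrays of the control hairpin and 344 to 635 with shTLS, and its part in the results was not tested. Arrays scaled to 8 spike-in control probes, RNA added in known amounts during labelling, showed a median shift of all tested probes of -0.82 with shTLS. Directions given below are therefore relative to the array as a whole. Where the spike-in value is printed, the direction is relative to the RNA added during labelling, not to the number of cells. Each group always lay at the same position of a slide, and the 2 cannot be told apart. Markers of other liver cells were present. The summed signal of 10 cholangiocyte markers ran from 42568 to 150934 in +/+ control, 20162 to 46607 in +/+ shTLS, 51633 to 225663 in -/- control and 19701 to 66336 in -/- shTLS cells. Of these, 7 were above background on all arrays and Muc1 on none. Sums of 9 macrophage markers, 6 of them above background on all arrays, were 3490 to 11304, 4264 to 4697, 6510 to 75435 and 4866 to 22358 in the same order. The medians of the tested markers of these types, averaged over genotypes, were -1.19 and -1.10 with shTLS. None of them passed with limma, and 4 and 3 passed lower with the replicate block. Of 10 endothelial and 10 stellate cell markers 7 and 6 were above background on all arrays. Endothelial markers had a median of 0.18, with Vwf the highest at 1.91 (limma adjusted p = 0.282). Stellate cell markers had a median of -0.21 over the 7 tested, 5 of them below 0. Colec11 rose by 3.26 (SE 0.55, limma adjusted p = 0.00750), higher in 6 of 6 mice, and Ngfr, at 0.81, passed with the block only (adjusted p = 0.0453); both were named after their values were seen. Their part in the results was not tested, and fewer cells of a type and less RNA per cell cannot be told apart in such cultures.

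Hsf1 and Hspb1 were lower with shTLS in all 6 mice. Hspa1a was higher in all 6 by its brightest 2 probes, as were Hsph1 and Hsp90aa1. Averaged over both genotypes, 3 of the 16 member probes passed at a limma adjusted p under 0.05 over all tested probes, all lower: both probes of Hsf1 and that of Hspb1. Over the whole array 7.77% of tested probes passed this comparison and 3.25% passed lower. At an unadjusted p under 0.05 it was 6 of 16, beside 27.9% of all tested probes. For the same 3 probes all 6 shTLS cultures lay below all 6 controls, beside 2.3% of all tested probes. The same 3 of 16 were the ones lower in all 6 mice, beside 19.1% of all tested probes, and 18.9% of all were higher in all 6. The number of members lower in every mouse is thus not in itself a result about them. The replicate number, shared by both genotypes and standing for assay and slide, was also taken as a block in the fit. With this replicate block 6 of 16 passed, 3 higher and 3 lower, and the 3 higher were probes of Hspa1a. Since 28.8% of all tested probes then passed (14.7% higher and 14.0% lower), the number of called members is not in itself a result about them. With the mouse as the block instead, 3 passed higher and 3 lower, beside 32.8% of all tested probes. Hsph1 then took the place of Hspa1a probe 3 among the higher. The median difference over the 16 probes was 0.10, beside -0.02 over all tested probes. Probes of 1 gene are not independent. By the brightest probe of each of the 9 genes, 2 passed with limma, both lower, beside 7.43% of named genes. With the replicate block 1 gene passed higher and 2 lower, beside 27.8%. The median over the 9 genes was 0.01.

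**Figure D1:**
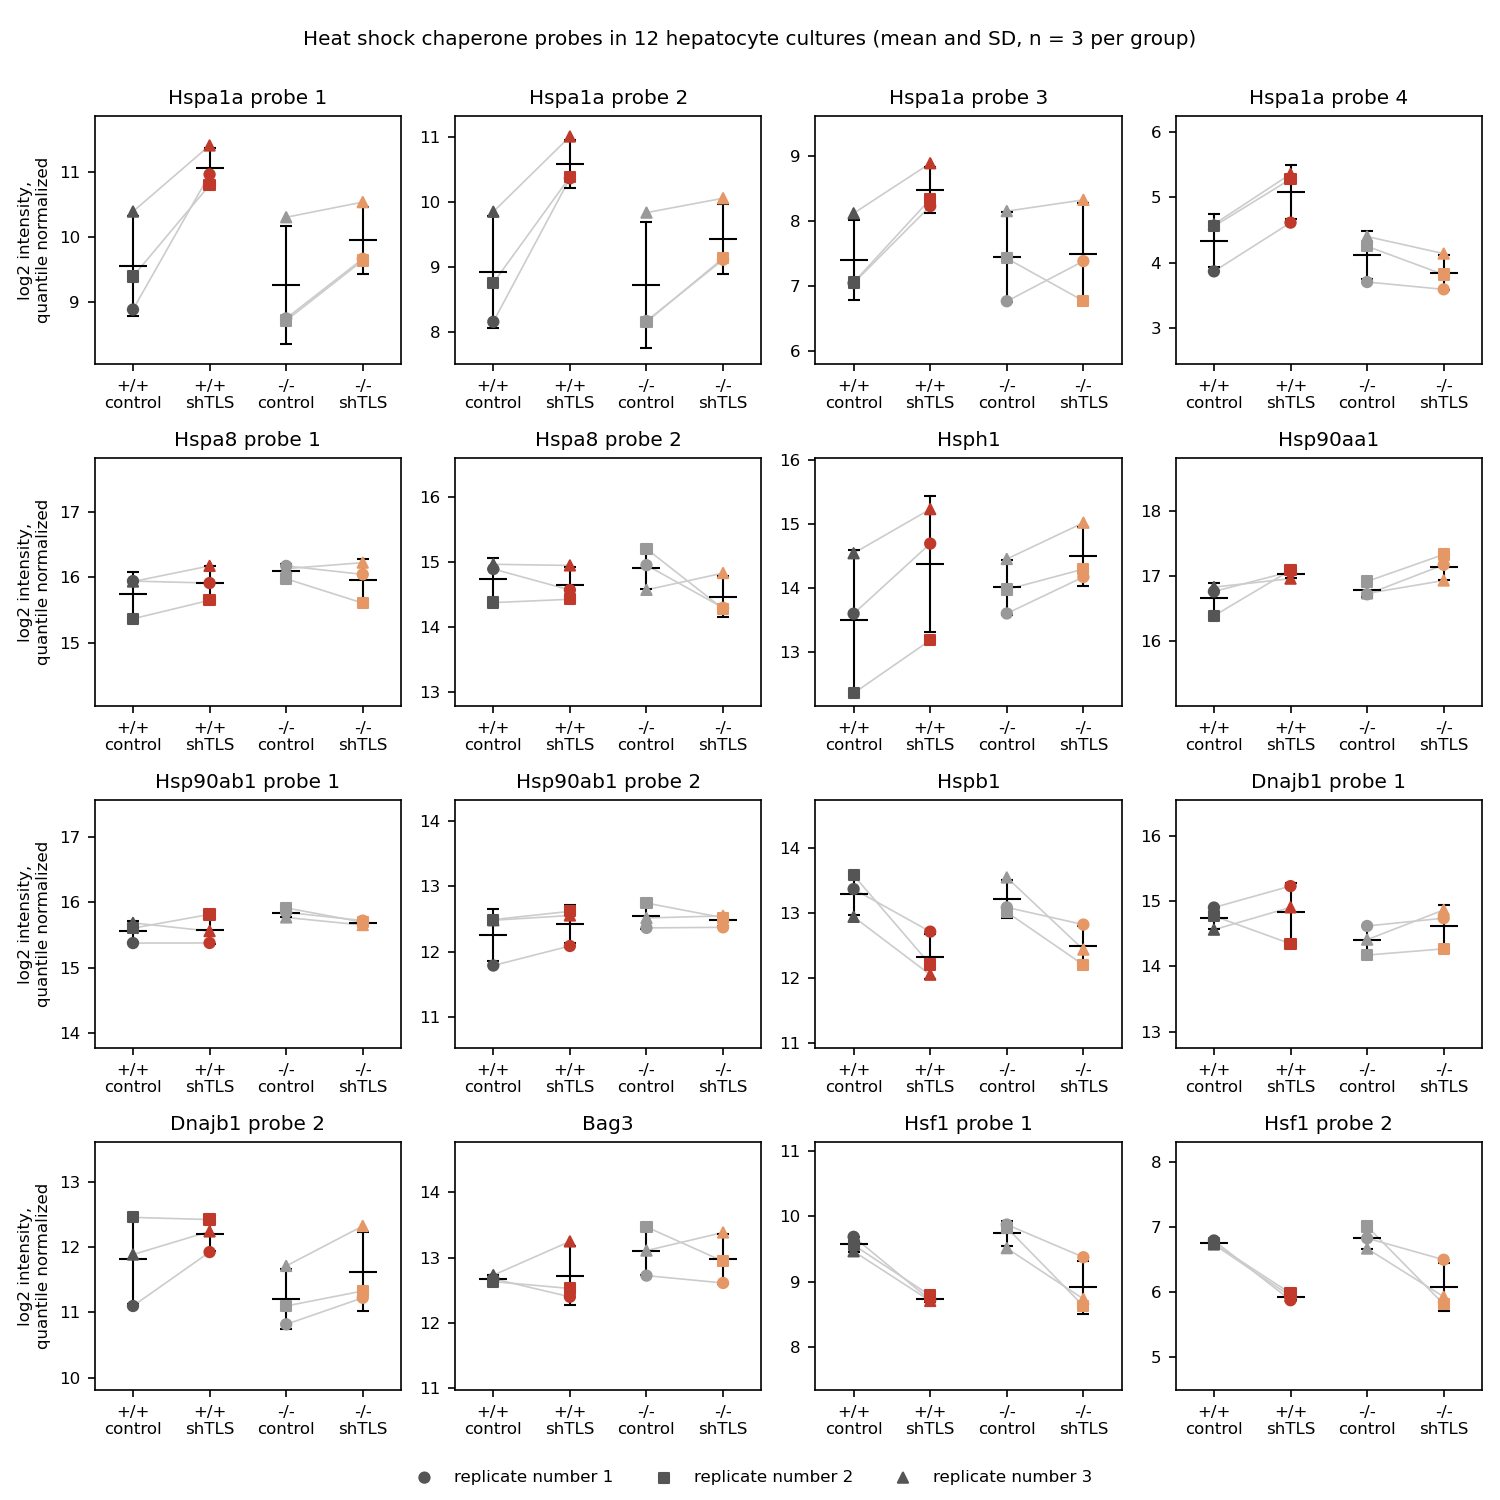
Log2 intensity of the 16 member probes in the 12 cultures, by group on the x axis; points are single arrays with 1 marker shape per replicate number, grey lines join the 2 cultures of a mouse, and bars give the mean and SD of 3 arrays. Each panel has its own level, since probes cannot be compared with each other. Hsf1 and Hspb1 read lower with shTLS in every mouse, whereas Hspa8, Hsp90ab1 and Bag3 overlap between the groups in +/+ cells.

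Hsf1, the transcription factor that drives the heat shock response, had 2 probes that ran in parallel over the 12 arrays (Pearson r = 0.988, a description). Probe 1 read 9.69, 9.56 and 9.46 in +/+ control cells and 8.72, 8.79 and 8.70 in +/+ shTLS cells. The -/- cells read 9.87, 9.83 and 9.51 under the control hairpin and 9.37, 8.63 and 8.73 under shTLS. All 6 shTLS cultures lay below all 6 controls, with -/- shTLS culture 1 the highest of the shTLS cultures. Averaged over genotypes, Hsf1 fell by 0.83 (SE 0.18, 95% CI -1.22 to -0.44, limma adjusted p = 0.0212), which is 1.78-fold lower. Probe 2, a dim probe that read 6.67 to 7.01 in controls and 5.82 to 6.50 with shTLS, fell by 0.79 (SE 0.17, limma adjusted p = 0.0212). Differences in the 6 mice ran from -1.20 to -0.50 for probe 1 and from -1.19 to -0.33 for probe 2. Within each genotype the difference of probe 1 was -0.83 in +/+ (SE 0.25, limma adjusted p = 0.156) and -0.83 in -/- cells (limma adjusted p = 0.229), and neither passed. With the replicate block the +/+ difference passed for both probes (adjusted p = 0.0318 and 0.0366) and the -/- difference for neither (adjusted p = 0.0501 and 0.0703). Scaled to the spike-in controls, the averaged difference of probe 1 was -1.73. With normexp correction that of probe 2 was -0.37 and did not pass (adjusted p = 0.0505). Leaving out 1 of 6 arrays ended the averaged call (adjusted p up to 0.0636 for probe 1). These arrays were +/+ control 1, +/+ shTLS 3, -/- control 1 and 2, and -/- shTLS 2 and 3, and probe 2 lost its call without the same arrays.

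Hspb1, a small heat shock protein that holds unfolded proteins and stabilises actin, had 1 probe. It read 13.36, 13.58 and 12.94 in +/+ control and 12.71, 12.21 and 12.05 in +/+ shTLS cells. Values of -/- cells were 13.08, 13.01 and 13.54 under the control hairpin and 12.82, 12.20 and 12.44 under shTLS. Both genotypes separated without overlap, and the highest shTLS value, 12.82, lay below the lowest control value, 12.94. Hspb1 fell by 0.85 averaged over genotypes (SE 0.21, 95% CI -1.30 to -0.39, limma adjusted p = 0.0346), a 1.80-fold lower level. In single mice the difference ran from -1.37 to -0.26. In +/+ cells it was -0.97 (SE 0.29, limma adjusted p = 0.158) and passed with the replicate block (adjusted p = 0.0478). The difference in -/- cells was -0.73 (limma adjusted p = 0.373, 0.141 with the replicate block). Scaled to the spike-in controls it was -1.67 averaged over genotypes. The averaged call held without any 1 of 3 arrays (+/+ control 3, +/+ shTLS 1 and -/- shTLS 1) and was lost without each of the other 9, where the adjusted p ran up to 0.0914.

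Hspa1a encodes the stress-inducible Hsp70, and Hspb1 and Hsph1 are further known targets of Hsf1. The promoter of Hspa1a is shown beside those of Hspb1, which differed in the opposite direction, and Hsph1, and beside that of Hspa1b, the near-identical neighbouring gene without a probe. The sequences are from RefSeq on GRCm38.p6, whose table of 300-base promoters around gene starts held 6 of the 10 genes. Windows shown are chr17:34972157-34972306 (minus strand, Hspa1a), chr17:34959239-34959388 (minus strand, Hspa1b), chr5:135887789-135887848 (plus strand, Hspb1) and chr5:149636279-149636308 (minus strand, Hsph1, from base 8 after the start). Capitals mark matches to the heat shock element, inverted repeats of GAA, searched as GAANNTTC or TTCNNGAA (2 units) or, in Hsph1, as GAANNTTCNNGAA (3 units), on both strands; a match to 3 units holds matches to 2 units.
Hspa1a: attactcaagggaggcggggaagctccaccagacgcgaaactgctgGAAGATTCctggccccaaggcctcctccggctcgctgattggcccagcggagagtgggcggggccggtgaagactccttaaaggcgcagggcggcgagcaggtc
Hspa1b: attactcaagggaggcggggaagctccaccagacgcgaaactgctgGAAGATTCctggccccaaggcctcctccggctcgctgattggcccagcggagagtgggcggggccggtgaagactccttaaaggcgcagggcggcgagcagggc
Hspb1: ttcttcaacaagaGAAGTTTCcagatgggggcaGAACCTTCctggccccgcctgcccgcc
Hsph1: gctgcagaTTCTGGAAAGTTCtcctcagta

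In the 300-base windows, 296 bases were identical between Hspa1a and Hspa1b (98.7%). The 8-base match begins 104 bases before the start of both, and those of Hspb1 begin 117 and 97 bases before its start. The match of Hsph1 to 3 units begins at base 16 after the start and occurs in its other promoter entry too. Of all 32851 promoters 15.1% held a match to 2 units and 0.603% to 3 units. Of the 6 member genes with a promoter entry, 5 held a match to 2 units (Hspa1a, Hspa1b, Hspb1, Hsph1 and Bag3; Dnajb1 held none), and Hsph1 alone held 3 units. A match to 2 units was thus held by Hspb1, which passed lower with shTLS averaged over genotypes. Hspa1a held one too, and its averaged difference was above 0 but did not pass without a block (limma adjusted p = 0.0798 for probe 1). A match of letters is a description, not a site.

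The 4 probes of Hspa1a spanned a wide range of brightness. Since Hspa1b is nearly identical in sequence, its RNA may bind the same probes, and the reading may be of both genes. Probe 1 read 8.89, 9.40 and 10.39 in +/+ control cells and 10.96, 10.80 and 11.40 with shTLS. Readings of -/- cells were 8.75, 8.72 and 10.30 under the control hairpin and 9.67, 9.64 and 10.54 under shTLS. Each +/+ shTLS culture lay above each +/+ control, whereas the -/- groups overlapped. Replicate number 3 was the highest in each of the 4 groups: the mean of the 4 arrays of number 3 was 10.66, against 9.57 and 9.64 for numbers 1 and 2. Assay and slide share that number and cannot be told apart.

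The difference of Hspa1a probe 1 was 1.49 in +/+ cells (SE 0.50, 95% CI 0.39 to 2.60), a 2.82-fold higher level, and it was 2.07, 1.40 and 1.01 in the 3 mice. It did not pass without a block (limma adjusted p = 0.196) and passed, at the same size, with the replicate block (SE 0.25, adjusted p = 0.00895). Probes 2, 3 and 4 gave 1.66, 1.07 and 0.75 in +/+ cells, and each passed with the block (adjusted p = 0.00617, 0.0294 and 0.0267) and not without it (limma adjusted p = 0.184, 0.300 and 0.286). In -/- cells the 4 probes gave 0.69, 0.71, 0.05 and -0.27, none of which passed with or without the block (adjusted p = 0.139, 0.133, 0.931 and 0.369 with it). Averaged over genotypes, probes 1 and 2 gave 1.09 (SE 0.35, limma adjusted p = 0.0798) and 1.18 (limma adjusted p = 0.0776). They passed with the block (adjusted p = 0.00337 and 0.00250), and also without the block where the third +/+ or the third -/- control array was left out (adjusted p of probe 1 = 0.0469 and 0.0280). Probe 3, at 0.56, passed with the replicate block (adjusted p = 0.0465) but not with the mouse as the block (adjusted p = 0.0596). Probe 4, at 0.24, passed with neither (adjusted p = 0.170 and 0.155). Scaled to the spike-in controls, the averaged difference was 0.21 for probe 1, 0.30 for probe 2, -0.26 for probe 3 and -0.34 for probe 4, so the direction of probes 3 and 4 turned. In -/- cells that scaling turned probes 1 and 2 as well, to -0.15 and -0.13. In +/+ cells the 4 probes then gave 0.57, 0.73, 0.19 and 0.12, and none passed (limma adjusted p = 0.278, 0.204, 0.685 and 0.792).

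Probes 1 and 2 followed each other closely (Pearson r = 0.998 over 12 arrays), and probes 3 and 4 less so (r = 0.896 and 0.731 with probe 1). Probe 3 read 7.05, 7.06 and 8.12 in +/+ control, 8.23, 8.33 and 8.88 in +/+ shTLS, 6.77, 7.43 and 8.15 in -/- control and 7.38, 6.77 and 8.32 in -/- shTLS cells. It was higher with shTLS in 5 of 6 mice. Probe 4, the dimmest, was above background on 2 of 3 +/+ control arrays and on all others. Its values were 3.86, 4.56 and 4.59 in +/+ control, 4.61, 5.28 and 5.36 in +/+ shTLS, 3.70, 4.25 and 4.40 in -/- control and 3.59, 3.82 and 4.14 in -/- shTLS cells. All 3 +/+ mice were higher with shTLS and all 3 -/- mice lower.

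Hspa8, the constitutive Hsp70, had 2 probes whose values correlated only in part (r = 0.572). Probe 1 read 15.94, 15.37 and 15.94 in +/+ control, 15.91, 15.65 and 16.18 in +/+ shTLS, 16.18, 15.98 and 16.13 in -/- control and 16.05, 15.61 and 16.23 in -/- shTLS cells. The groups overlapped between vectors in both genotypes, and the averaged difference was 0.01 (SE 0.19, 95% CI -0.40 to 0.43, limma adjusted p = 0.970). Probe 2 gave -0.27 (95% CI -0.71 to 0.18, limma adjusted p = 0.408), and -0.96 scaled to the spike-in controls.

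Hsph1, an Hsp110 chaperone that acts as an exchange factor of Hsp70, was the most variable member. Its values were 13.59, 12.35 and 14.54 in +/+ control and 14.70, 13.18 and 15.24 in +/+ shTLS cells. The -/- cultures read 13.60, 13.97 and 14.45 under the control hairpin and 14.17, 14.29 and 15.02 under shTLS. The groups overlapped, yet each of the 6 mice was higher with shTLS, by 0.32 to 1.10. The spread within groups (pooled SD 0.83) was larger than that of 79.9% of tested probes, and the second +/+ mouse was the lowest under both vectors. The averaged difference of 0.68 (SE 0.43, limma adjusted p = 0.321) did not pass with the replicate block either (adjusted p = 0.0949). With the mouse as the block, which removes the level of each animal, its SE was 0.12 and it passed (adjusted p = 0.00838, when 32.8% of all tested probes passed). In +/+ cells it then passed too, at 0.88 (adjusted p = 0.0225). Scaled to the spike-in controls the averaged difference turned to -0.07.

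Dnajb1, the J-domain partner of inducible Hsp70, had 2 probes with little in common over the arrays (r = 0.260). Probe 1 read 14.90, 14.77 and 14.56 in +/+ control, 15.23, 14.35 and 14.90 in +/+ shTLS, 14.62, 14.17 and 14.41 in -/- control and 14.74, 14.27 and 14.86 in -/- shTLS cells. Probe 2 read 11.10, 12.46 and 11.89, then 11.93, 12.42 and 12.24, then 10.82, 11.10 and 11.71, and 11.22, 11.33 and 12.33 in the same order of groups. Groups overlapped for both, and averaged differences were 0.15 (95% CI -0.29 to 0.60, limma adjusted p = 0.652) and 0.40 (95% CI -0.25 to 1.04, limma adjusted p = 0.393). Bag3, an exchange factor that links Hsp70 to autophagy, read 12.68, 12.63 and 12.73 in +/+ control and 12.40, 12.53 and 13.25 in +/+ shTLS cells. It read 12.72, 13.47 and 13.11 in -/- control and 12.61, 12.94 and 13.38 in -/- shTLS cells. Its averaged difference was -0.04 (95% CI -0.52 to 0.45, limma adjusted p = 0.928), with 2 of 6 mice higher.

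Hsp90aa1, the stress-inducible cytosolic Hsp90, read 16.76, 16.39 and 16.83 in +/+ control and 17.07, 17.09 and 16.96 in +/+ shTLS cells. It read 16.72, 16.92 and 16.73 in -/- control and 17.17, 17.33 and 16.93 in -/- shTLS cells. All 6 shTLS cultures lay above all 6 controls, which was so for 1 of the 16 member probes and for 3.49% of all tested probes. The averaged difference was 0.37 (SE 0.16, 95% CI 0.02 to 0.71, limma adjusted p = 0.162), 0.38 in +/+ and 0.35 in -/- cells, and it did not pass with the replicate block (adjusted p = 0.0837). It passed when arrays were scaled to the 75th percentile (0.92, adjusted p = 0.0153) or corrected with normexp (0.47, adjusted p = 0.0312), and was 0.01 when scaled to the spike-in controls. Probe 1 of Hsp90ab1, the constitutive form, varied least of the 16, with a pooled SD of 0.14, smaller than that of all but 0.981% of tested probes; that of its probe 2 was 0.27. Probe 1 read 15.38, 15.61 and 15.69 in +/+ control, 15.38, 15.82 and 15.56 in +/+ shTLS, 15.85, 15.92 and 15.77 in -/- control and 15.72, 15.70 and 15.65 in -/- shTLS cells. Averaged differences were -0.06 (95% CI -0.40 to 0.27, limma adjusted p = 0.815) and, for probe 2, 0.05 (95% CI -0.37 to 0.47, limma adjusted p = 0.879). Whether Hsp90aa1 and Hsp90ab1 differ from each other in this difference was not tested.

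**Figure D2:**
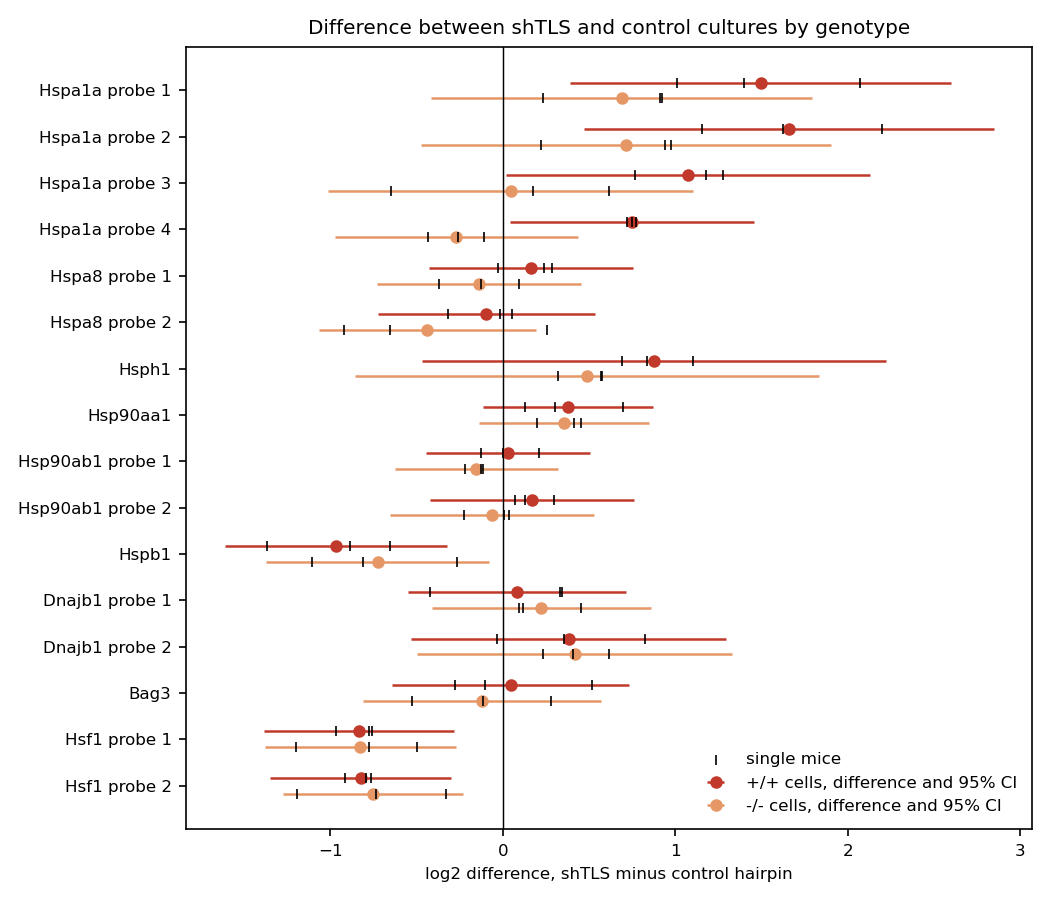
Log2 difference between shTLS and control cultures for each member probe, in +/+ and in -/- cells, with the 95% confidence interval of the unpaired fit (n = 3 arrays per group); short vertical lines are the 3 mice of each genotype. Hsf1 and Hspb1 lie below 0 and Hspa1a probes 1 and 2 above 0 in all mice, while Hspa1a probe 4 lies above 0 in +/+ and below 0 in -/- mice.

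Counted by genotype, 0 of the 16 member probes passed in +/+ cells with limma, where 0.985% of all tested probes did. At an unadjusted p under 0.05 it was 7 of 16, or 3 of 9 genes by the brightest probe, beside 16.3% of all tested probes. With the replicate block 4 probes passed higher (Hspa1a) and 3 lower (Hspb1 and Hsf1), beside 12.4% of all tested probes, 7.06% higher and 5.37% lower. By the brightest probe of each of the 9 genes that was 1 higher and 2 lower, beside 11.5% of named genes. With the mouse as the block 8 of 16 probes passed, beside 15.8%, with Hsph1 added. Groups did not overlap for 5 probes higher (the 4 of Hspa1a and Hsp90aa1) and 3 lower, where the shares of all tested probes were 10.3% and 9.61%. In -/- cells 0 of 16 passed, beside 0.769% of all tested probes, and 3 had an unadjusted p under 0.05, beside 11.8%. With the replicate block 0 of 16 passed there, beside 5.86%. With the mouse as the block probe 1 of Hsf1 passed (adjusted p = 0.0492, beside 8.03%). Groups did not overlap for 1 probe higher (Hsp90aa1) and 4 lower (Hspb1, both of Hsf1 and probe 1 of Hsp90ab1), beside 9.53% and 9.41%. The 2 genotypes share no sample, but a pass in 1 and not in the other does not show that they differ.

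That difference was tested as the interaction of genotype and hairpin. Of the 16 member probes 0 passed with limma, as did 0.0% of all tested probes, and 1 member probe (Hspa1a probe 4) and 0.264% of all tested probes had an unadjusted p under 0.05. The 4 probes of Hspa1a gave -0.81 (95% CI -2.37 to 0.76), -0.95, -1.03 and -1.02 (95% CI -2.02 to -0.02), with a limma adjusted p of 1.0 for each, with and without the replicate block. For Hsf1 probe 1 it was 0.01 (95% CI -0.77 to 0.79), for Hspb1 0.24 (95% CI -0.67 to 1.16) and for Hsph1 -0.39 (95% CI -2.29 to 1.51). These intervals are of the unpaired fit, and of those printed, that of Hspa1a probe 4 alone leaves out 0. With the mouse as the block, limma gave an unadjusted p of 0.0643, 0.0380, 0.0298 and 0.00342 for Hspa1a probes 1 to 4. None of them passed after adjustment, as did 0.0% of all tested probes. The share of all tested probes with an unadjusted p under 0.05 in that fit is not given here.

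The comparison of genotypes asked whether loss of PGC-1alpha shifts the chaperones. All 9 tested macrophage markers were higher in -/- cells, with a median of 2.54 with the control hairpin and 1.43 with shTLS. Medians of the 8 hepatocyte markers were 0.24 and -0.02. No marker of either list passed with or without the replicate block, and their part in the differences below was not tested. With the control hairpin 0 of 16 member probes passed with limma, beside 0.0801% of all tested probes, and 0 had an unadjusted p under 0.05, beside 3.14%. Differences ran from -0.60 (Dnajb1 probe 2) to 0.51 (Hsph1). Groups did not overlap for 2 probes, both higher in -/- cells, beside 3.04% of all: Hspa8 probe 1 (0.35, 95% CI -0.24 to 0.94) and Hsp90ab1 probe 1 (0.29, 95% CI -0.19 to 0.76). With shTLS 0 of 16 passed with limma, beside 0.0721%, and 1 had an unadjusted p under 0.05, beside 2.16%. Hspa1a was lower in -/- cells by 1.10, 1.15, 0.99 and 1.23 on the log2 scale for probes 1 to 4, and the groups did not overlap for probes 1, 2 and 4, beside 2.79% of all probes that were lower without overlap. Probe 1 had a 95% CI of -2.21 to 0.00 (limma adjusted p = 1.0). Probe 4 had the smallest p (0.00275 unadjusted, limma adjusted p = 0.746) and passed with the replicate block (adjusted p = 0.0382, when 0.156% of all tested probes passed). It was -0.22 with normexp correction. This comparison and that of shTLS in each genotype share samples, so their values are not independent. Averaged over vectors 0 of 16 passed with limma, beside 0.0881% of all tested probes, 1 had an unadjusted p under 0.05, beside 2.75%, and differences ran from -0.73 (Hspa1a probe 4) to 0.34 (Bag3).

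For each probe the order of the 4 group means can be read from these values. Hspa1a probe 1 was highest in +/+ shTLS (11.05 ± 0.31), then -/- shTLS (9.95 ± 0.51), +/+ control (9.56 ± 0.76) and -/- control cells (9.26 ± 0.90, SD, n = 3), and neighbours after the first overlapped. Hsf1 probe 1 was 9.74 ± 0.20 in -/- control, 9.57 ± 0.11 in +/+ control, 8.91 ± 0.40 in -/- shTLS and 8.74 ± 0.04 in +/+ shTLS cells. Only the step between the control and the shTLS groups was free of overlap. Hspb1 followed 13.29 ± 0.32, 13.21 ± 0.29, 12.49 ± 0.31 and 12.32 ± 0.34 in +/+ control, -/- control, -/- shTLS and +/+ shTLS cells, with a gap at the same step.

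The scaling decided the sign of many differences, and not only of the smallest. With scaling to the spike-in controls, the averaged difference of Hsph1 turned from 0.68 to -0.07 and that of Hspa1a probe 3 from 0.56 to -0.26. Between quantile normalization and scaling to the spike-in controls, the averaged difference changed sign for 7 of 16 member probes, and the median over them moved from 0.10 to -0.55, beside -0.02 and -0.82 over all tested probes. Averaged over genotypes, Hsf1 and Hspb1 kept their direction under quantile normalization, the 75th percentile, normexp and the spike-in controls, as did Hspa1a probes 1 and 2. With the spike-in scaling 4 member probes not called in the main values were called lower: Hspa8 probe 2 at -0.96, Bag3 at -0.85, Hsp90ab1 probe 1 at -0.70 and its probe 2, which was at 0.05 before, at -0.79 (limma adjusted p = 0.00890, 0.0128, 0.0111 and 0.0113). Under that scaling 13909 of 24960 tested probes passed, only 693 of them higher, so these calls are not in themselves a result about the members. Which scaling is closer to the amount of RNA per cell cannot be told from these arrays, since the spike-in RNA was added during labelling.

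**Figure D3:**
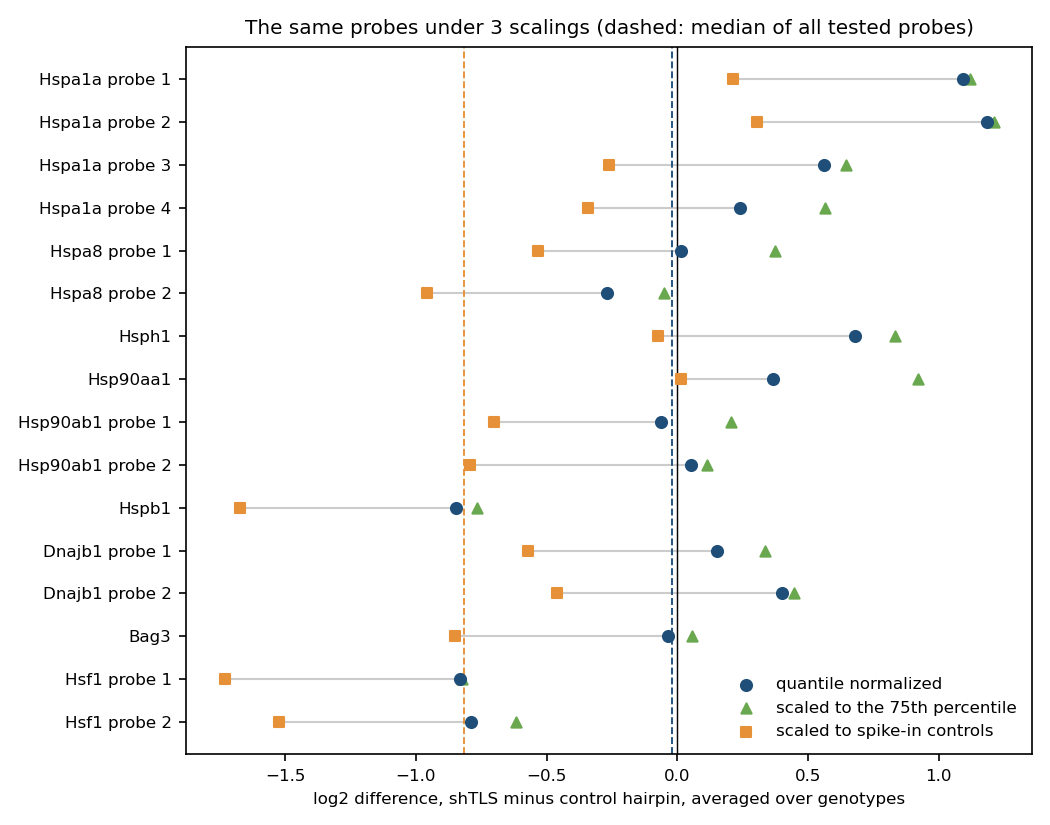
Log2 difference between shTLS and control cultures, averaged over genotypes, for the 16 member probes under 3 scalings; the dashed lines mark the median of all tested probes, -0.02 with quantile normalization and -0.82 with scaling to the spike-in controls. Hspa1a, Hsph1 and Hsp90aa1 lie to the right and Hsf1 and Hspb1 to the left of the line of their own scaling.

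Other chaperones were taken from 9 lists of 95 genes, of which 87 were tested by their brightest probe. With shTLS, averaged over genotypes, 1 of 87 passed with limma, beside 7.43% of named genes. It was Pih1d1, a subunit of the R2TP cochaperone complex of Hsp90, which fell by 0.77 (SE 0.19, limma adjusted p = 0.0387) and was lower in 6 of 6 mice. With the replicate block 12 of 87 passed, 6 higher and 6 lower, beside 27.8% of named genes. In +/+ cells 0 of 87 passed with limma, beside 1.01% of named genes, 4 had an unadjusted p under 0.05, and 5 passed with the replicate block, beside 11.5%. For -/- cells 0 of 87 passed with or without the block, beside 0.821% and 5.43%, and 1 had an unadjusted p under 0.05.

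The chaperones of the endoplasmic reticulum, which fold secreted proteins, had the largest median of the 9 lists. It was 0.53 over 10 tested genes averaged over genotypes, beside -0.04 over all named genes, with 9 of 10 above 0, and -0.30 when scaled to the spike-in controls. Dnajb9, a J-domain cofactor of the Hsp70 of that compartment, had the largest difference, 1.25 (SE 0.47, limma adjusted p = 0.118), and passed with the block (adjusted p = 0.00865). Hspa5 at 0.64, Dnajc3 at 0.74 and Calr at 0.66 passed with the block too (adjusted p = 0.00699, 0.00687 and 0.0216), and were named after their values were seen. Canx had the lowest, -0.51. All 4 called genes were higher in 6 of 6 mice, beside 18.9% of all tested probes. The call rests on the same differences, so the signs add no support to it. Between genotypes (-/- against +/+) the median of this list was of like size, 0.53 with the control hairpin and 0.52 with shTLS. There 8 of 10 genes were above 0 in each, and none passed with or without the block.

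In the cytosol the lists were mixed. Among 7 tested Hsp70 and Hsp110 relatives 6 were above 0 (median 0.35), from Hspa4l at -0.30 to Hspa1l, a testis-enriched Hsp70 that lies beside Hspa1a, at 0.67 (adjusted p = 0.0405 with the block, limma adjusted p = 0.114 without). Among 5 small heat shock proteins 4 were below 0 (median -0.22), from Hspb2 at -0.90 to Hspb8 at 0.39, and none passed. The 15 Hsp90 cochaperones had a median of -0.16 and ran from Pih1d1 to Ppp5c, a phosphatase bound to Hsp90, at 0.67 (limma adjusted p = 0.0505, 0.0223 with the block). Fkbp4, an immunophilin of steroid receptor complexes, read -0.75 and Ahsa2 -0.68, and both passed with the block (adjusted p = 0.0264 and 0.0184) and were named after their values were seen. Medians were -0.03 for 10 J-domain proteins (Dnaja4 at -0.43 to Dnaja2 at 0.39), 0.03 for 9 exchange factors and Hsp70 cochaperones (Bag2 at -0.57 to Bag1 at 0.25) and 0.05 for 14 subunits of the chaperonin and prefoldin (Pfdn6 at -0.60 to Pfdn4 at 0.55). Dnaja4, Bag2 and Pfdn6 passed lower with the block (adjusted p = 0.0416, 0.0135 and 0.0323). The 11 mitochondrial chaperones had a median of 0.07, from Hspd1 at -0.40 to Hspa9 at 0.41, and the 6 other heat shock factors and regulators -0.08, from Hsf2 at -0.50 to Sirt1 at 0.77, and none of either list passed with or without the block. In the comparisons of genotypes 0 of 87 passed with limma, with or without the block, and 0 had an unadjusted p under 0.05.

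**Figure D4:**
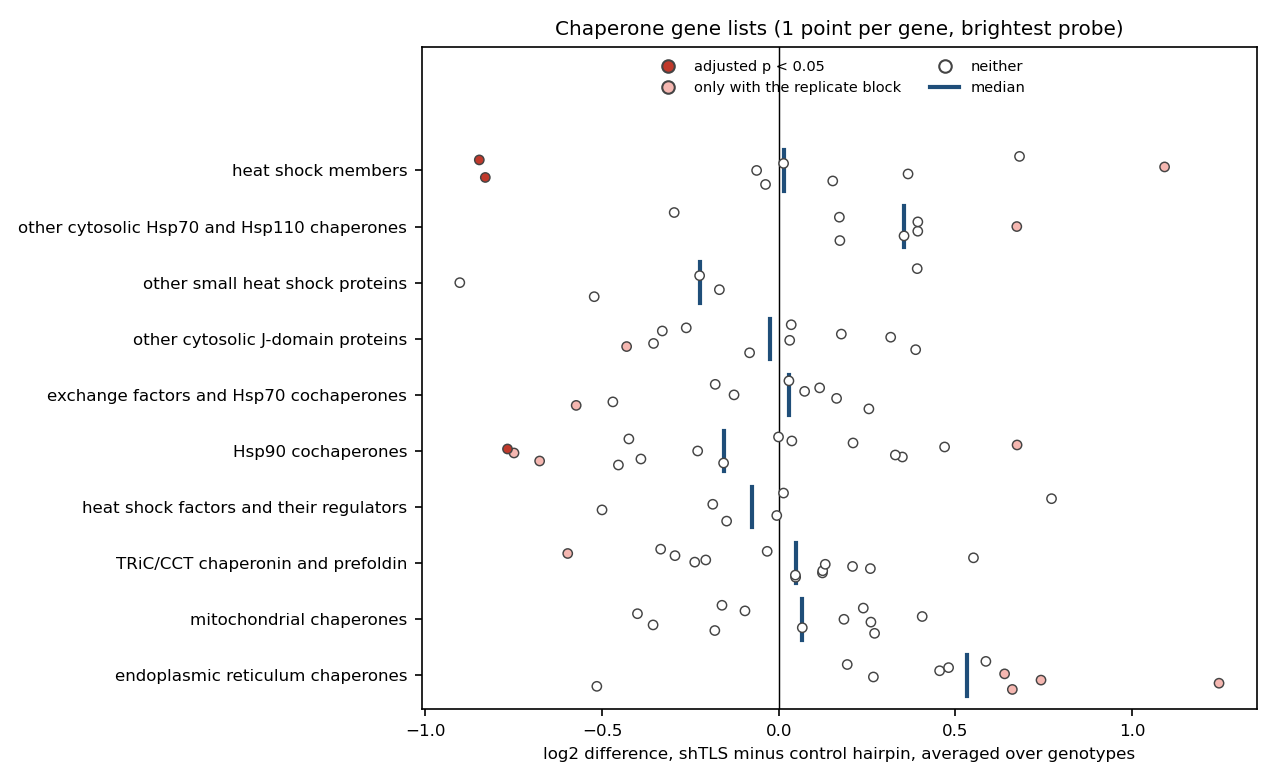
Log2 difference between shTLS and control cultures, averaged over genotypes, for the member genes and 9 lists of other chaperones; each point is a gene by its brightest probe, filled by whether it passed, and the blue bar is the list's median. The endoplasmic reticulum chaperones lie mostly to the right of 0 with a median of 0.53, and the genes of the other lists that passed with the replicate block lie on both sides.

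Among 12784 other named genes, those whose brightest probe ran most like Hspa1a probe 1 over the 12 arrays were Rbbp5 (Pearson r = 0.974), Med7 (0.958), Wbp4 (0.955), Ppp2r5c (0.953) and Atg101 (0.953). They encode a subunit of histone methyltransferase complexes, a Mediator subunit, a spliceosomal protein, a regulatory subunit of a protein phosphatase and an autophagy protein. None is a member or a gene of the 9 lists. Arrays share mouse, assay and slide by number, so the points are not independent. Within the members, likeness to Hspa1a probe 1 was highest for Hsph1 (0.555) and lowest for Hsf1 (-0.779), with Hspb1 at -0.578, Dnajb1 at 0.349, Hsp90aa1 at 0.306, Hspa8 at 0.137, Bag3 at -0.02 and Hsp90ab1 at -0.291.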

How the data were processed

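Total RNA of 12 cultures was labelled with 1 colour (Cy3) and hybridized to Agilent whole mouse genome arrays on 3 slides. The deposited array files give, per the file headers, a background-subtracted intensity for every spot (linear, not normalized between arrays), and other columns, per the file headers, hold flags for spots above background or outlying. A deposited table joins the 12 arrays as log2 values that the authors made by raising signals below 1 to 1 and by quantile normalization, per the series' design text. The submitters' processing notes name Agilent Feature Extraction 10.1.1.1 and limma. Log2 values recomputed here from the array files correlated by at least 0.999974 with the deposited ones. No member spot was flagged and no spot was saturated. The highest correlation between arrays was 0.990, and 0 pairs were identical.

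The 16 member probes were found by RefSeq accession through an annotation of GRCm38.p6, which named 24375 of 41174 probes and left 16799 unnamed. To be tested, a probe had to be well above background on every array of 1 or more groups (24962 probes). limma 3.58.1 in R 4.3.3 (statmod 1.5.0) fitted 4 group means to the deposited log2 values of 12 arrays (8 residual degrees of freedom, prior 2.91), with two-sided moderated tests and Benjamini-Hochberg adjustment over all tested probes, called under 0.05. For genotypes averaged over vectors the mouse entered as a random block (correlation 0.584). The smallest two-sided p of an exact test of 3 against 3 arrays is 0.1, and the number of arrays limits the precision. Per the labels, cultures of different mice were isolated separately, and the control and shTLS cultures of a number and genotype share a mouse. The level of the hairpin's target is not reported here.

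The labels give the mouse and the assay of each number. Deviations from group means had correlations of 0.216 to 0.670 for same-numbered arrays and no higher than 0.104 for others, so the numbers pair the samples. The numbers entered as a block in an alternative fit, and its values stand beside results that it changed.

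All members are named with all probes. In the other lists the called genes are named (at most 4 per direction and list) and, where none passed, the largest and smallest. The 5 genes most like Hspa1a are named by Pearson r. Members, lists and alternatives were chosen with earlier results of these data known. A group of 3 is described by its mean ± SD. Summed marker signals are the sum of linear signals over the brightest probe of each marker.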

Additional observations from a re-analysis of the deposited data

Results flagged for a closer look

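The dimmest probe of Hspa1a (probe 4) differed in sign between the genotypes in single mice. With shTLS it was higher by 0.75, 0.72 and 0.77 in the 3 +/+ mice, and its differences were -0.11, -0.43 and -0.26 in the 3 -/- mice. The difference between both effects was -1.02 (SE 0.45, unadjusted p = 0.0470, limma adjusted p = 1.0) in the unpaired fit. With the mouse as the block its SE was 0.23 and its unadjusted limma p was 0.00342, and it did not pass after adjustment. The probe was not well above background on 1 +/+ control array, and with normexp correction the difference was -0.20. The 3 brighter probes of the gene gave -0.81, -0.95 and -1.03, and none of them passed.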

How the results depend on the processing

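Of 2328 alternative values of single member probes, 2248 kept their direction and side of the threshold or moved within 1 SD, 35 came to pass, 22 no longer passed, 22 uncalled values changed sign by 1 SD or more (17 of them with the spike-in scaling) and 1 came to be called in the opposite direction: Hsp90ab1 probe 2, from 0.05 to -0.79 when scaled to the spike-in controls, averaged over genotypes. Only 3 main values were called, those of Hspb1 and both probes of Hsf1 averaged over genotypes, so most of the values kept were uncalled in both. The 22 that no longer passed were all of these 3, and 21 of them arose with 1 array left out. The sign changed in 114 values, 81 of them with 1 array left out and 21 with the spike-in scaling. Counts of called probes over the whole array moved more. For shTLS in +/+ cells the count was 246, and it was 382 with the 75th percentile, 6055 (287 of them higher, against 205 of 246) with the spike-in scaling, 132 with normexp, 116 for probes above background on all arrays, 45 with only the groups compared, 3104 with the replicate block and 3941 with the mouse as a block. Without 1 array it was 107 to 316 (107 and 159 without +/+ control 1 and 2, 120 and 119 without +/+ shTLS 2 and 3). In -/- cells it was 192, and 117 with normexp, 96 for probes above background on all arrays, 1462 with the replicate block, 2005 with the mouse block and 99 to 230 without 1 array. Averaged over genotypes it was 1940, and 13909 (693 higher, against 1129) with the spike-in scaling, 7182 with the replicate block, 8193 with the mouse block and 718 to 2420 without 1 array. Between genotypes with the control hairpin it was 20, and 4 for probes above background on all arrays, 12 with no filter, 6 with only the groups compared, 43 with the replicate block and 11 to 19 without 1 array. With shTLS it was 18, and 3, 12 with only the groups compared, 39 with the block and 11 to 22. Averaged over vectors it was 22, and 7, 126 with the block, 80 with no random block and 17 to 29. The interaction count was 0 under all settings but 1, with 1 probe without -/- shTLS 1. The replicate block changed no other call of a member than those given beside the results. The filter for all arrays tests fewer probes and leaves out Hspa1a probe 4; for the other settings the cause was not tested. Dim probes, such as Hspa1a probe 4, are limited by signal over background.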
